A study of Homo sapiens with 12 samples.

Results

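The SR splicing factors are a family of RNA-binding proteins whose messages were followed here in HCT116 cells, a human colorectal carcinoma line, after loss of SDS22. The genes were chosen by name: SRSF1, SRSF2, SRSF3, SRSF4, SRSF5, SRSF6, SRSF7, SRSF9, SRSF10 and SRSF11, which are 10 of the 58233 genes in the count table. All 10 had enough reads to be tested. SR proteins bind exonic enhancers through RNA recognition motifs and recruit the spliceosome through a domain rich in serine and arginine. Kinases of the SRPK and CLK families phosphorylate that domain and protein phosphatase 1 (PP1) is among the enzymes that dephosphorylate it. Many SR genes also limit their own messages by including a poison exon, which exposes the message to nonsense-mediated decay (NMD). SDS22, encoded by PPP1R7, is a regulatory partner of PP1.

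RNA was sequenced from 2 lines in 2 states, with 3 libraries in each of the 4 groups and 12 in all. The parental line was HCT116 Tet-OsTIR1, which carries a doxycycline-inducible plant F-box gene, OsTIR1, at the AAVS1 locus. The SDS22-degron line was made from it by tagging PPP1R7 so that SDS22 carries mAID, an auxin-inducible degron, and mClover, with neomycin and hygromycin cassettes. In each line, 1 group was untreated and the other received 48 h in 2 µg/ml doxycycline (Dox) and 500 µM of the auxin indole-3-acetic acid (IAA). Both lines therefore carried OsTIR1 and both received Dox/IAA, so that the parental pair measures the response to the agents and to OsTIR1. The paper describes picking and growing single colonies after selection. Whether the SDS22-degron line that was sequenced was 1 such clone was not given in the sources used here. The 3 libraries of a group are labelled as biological replicates, and the paper describes them as triplicate samples.

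Between 12133915 and 14657508 reads per library fell on genes, with a median of 12662965. Of the 58233 genes, 30524 had at least 1 count and 16657 were tested. Epithelial markers EPCAM, KRT8, KRT18, CDH1 and CLDN4 were present in every library, whereas VIL1 had at most 2 counts. In CPM (counts scaled by library size), the 5 leukocyte markers summed to at most 0.906 and the 4 endothelial markers to at most 1.81 in any library, and PTPRC, CDH5 and DCN had at most 1 count. The 5 fibroblast markers summed to 9.96 to 13.9 CPM in untreated and 17.3 to 22.9 CPM in treated parental cells, and to 13.8 to 15.8 and 21.3 to 31.8 CPM in SDS22-degron cells. COL1A1 made up nearly all of that sum, COL1A2 and DCN were at 0, and its part in the results was not tested. PPP1R7 RNA averaged 43.7 ± 3.82 CPM in untreated parental, 45.4 ± 4.11 in Dox/IAA-treated parental, in SDS22-degron cells 44.0 ± 2.95 untreated and 47.9 ± 3.39 with Dox/IAA (SD, n = 3). The degron acts on the protein, so the PPP1R7 message does not check the depletion. The largest median deviations of the SR genes from their group means were in a pair of libraries. In replicate 2 of untreated and of Dox/IAA-treated parental cells, 9 of the 10 genes lay above their group mean, with median log2 deviations of 0.12 and 0.13, while the median over all tested genes was 0 and -0.004. Other libraries deviated too: 9 genes lay above the mean in untreated SDS22-degron replicate 1 (median 0.05) and 0 in treated parental replicate 1 (median -0.09). The medians of replicate 3 were -0.10 in untreated parental and -0.09 in untreated SDS22-degron cells. Results that rest on the parental replicate 2 libraries are given with and without them.

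The genes lie on 7 chromosomes, at positions given here as the count table lists them (GRCh38). Chromosome 1 holds SRSF4 (ENSG00000116350) at chr1:29147743-29181987 on the minus strand, SRSF10 (ENSG00000188529) at chr1:23964804-23980927 on the minus strand and SRSF11 (ENSG00000116754) at chr1:70205682-70253052 on the plus strand. On chromosome 17 are SRSF1 (ENSG00000136450) at chr17:58003360-58007346 on the minus strand and SRSF2 (ENSG00000161547) at chr17:76734115-76737374 on the minus strand. The table lists SRSF7 (ENSG00000115875) at chr2:38743599-38751494 on the minus strand, SRSF3 (ENSG00000112081) at chr6:36594353-36605600 on the plus strand and SRSF9 (ENSG00000111786) at chr12:120461668-120469793 on the minus strand. It also lists SRSF5 (ENSG00000100650) at chr14:69726900-69772005 on the plus strand and SRSF6 (ENSG00000124193) at chr20:43457928-43464247 on the plus strand. Reads were counted over whole gene models, so isoforms with and without a poison exon are not separated.

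Ahead of the measurements, the sequences upstream of the genes are given, because the genes that fell with Dox/IAA in SDS22-degron cells can then be seen beside the gene that rose. RefSeq promoter windows (GRCh38.p14) were matched for 9 of the 10 genes, the exception being SRSF2, and the 250 bases before the RefSeq start were used. That start can differ from the gene model over which reads were counted. The SRSF5 window lies inside its counted model (chr14:69726900-69772005), and so does the SRSF10 window. Those of SRSF1, SRSF3, SRSF4, SRSF9 and SRSF11 overlap the start of theirs. SRSF1, SRSF7 and SRSF3 are shown as genes that fell, SRSF4 as the gene with the largest gap between the treated lines, and SRSF5 as the gene that rose. Capitals mark matches to the motifs searched.
SRSF1, chr17:58007247-58007496, minus strand: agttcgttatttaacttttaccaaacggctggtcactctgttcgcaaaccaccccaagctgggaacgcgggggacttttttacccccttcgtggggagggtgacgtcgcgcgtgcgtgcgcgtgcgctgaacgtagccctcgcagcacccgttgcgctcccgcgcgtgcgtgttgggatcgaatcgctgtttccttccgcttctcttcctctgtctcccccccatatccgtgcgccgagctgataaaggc
SRSF7, chr2:38751495-38751744, minus strand: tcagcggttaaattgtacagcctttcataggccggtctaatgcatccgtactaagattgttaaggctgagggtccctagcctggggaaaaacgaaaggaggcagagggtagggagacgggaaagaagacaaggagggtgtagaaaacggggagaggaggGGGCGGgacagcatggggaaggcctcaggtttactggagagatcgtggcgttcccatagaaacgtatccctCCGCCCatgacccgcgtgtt
SRSF3, chr6:36594112-36594361, plus strand: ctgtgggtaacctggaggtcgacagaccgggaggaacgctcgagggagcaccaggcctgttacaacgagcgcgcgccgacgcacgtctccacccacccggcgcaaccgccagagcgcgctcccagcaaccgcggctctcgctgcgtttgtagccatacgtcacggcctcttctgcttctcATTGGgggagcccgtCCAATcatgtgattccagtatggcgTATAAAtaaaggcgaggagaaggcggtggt
SRSF4, chr1:29181901-29182150, minus strand: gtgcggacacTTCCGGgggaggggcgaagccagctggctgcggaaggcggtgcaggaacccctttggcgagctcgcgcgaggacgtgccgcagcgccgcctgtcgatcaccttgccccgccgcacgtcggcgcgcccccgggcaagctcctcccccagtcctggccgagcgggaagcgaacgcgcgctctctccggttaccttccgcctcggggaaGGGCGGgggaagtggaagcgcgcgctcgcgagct
SRSF5, chr14:69766892-69767141, plus strand: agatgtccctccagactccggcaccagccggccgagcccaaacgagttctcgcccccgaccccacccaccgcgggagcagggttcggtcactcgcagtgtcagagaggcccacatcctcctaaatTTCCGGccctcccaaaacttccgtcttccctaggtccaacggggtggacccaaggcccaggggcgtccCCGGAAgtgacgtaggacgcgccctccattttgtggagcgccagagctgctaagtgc
Both strands were searched for the TATA box as TATAAA, for the box with the letters CCAAT, for the GC box as GGGCGG, for the ETS core as CCGGAA and for the cAMP response element as TGACGTCA. The E2F motif was searched as TTTGGCGC or as TTTCCCGC, and the NRF1 core as GCGCATGC. No match overlapped another in the sequences shown. SRSF3 was the member with a TATA box, 30 bases upstream of its start, and with CCAAT boxes at 55 and 70 bases. TATAAA was present in 10.7% and CCAAT in 32% of 35114 promoters of the same length. A GC box was found in SRSF4, SRSF6 and SRSF7, that is in 3 of 9 members against 42.6% of promoters. An ETS core was found in SRSF4 and in SRSF5, where the matches began 57 and 125 bases upstream, against 14.5% of promoters. SRSF10 held an E2F motif (1.93% of promoters) and an NRF1 core (2.63%), no member held the cAMP response element (1.65%), and SRSF1, SRSF9 and SRSF11 held none of these letters. These matches are a description of the windows.

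The levels of the family spanned a wide range. Per length of the gene model, which counts all annotated exons, SRSF2 and SRSF1 led in untreated SDS22-degron cells, with 111 ± 2.55 and 106 ± 6.10 RPKM (CPM divided by the length in kilobases; SD, n = 3). SRSF6 followed at 71.9 ± 4.14 and SRSF9 at 56.1 ± 1.29 RPKM. SRSF7 (39.0 ± 1.77), SRSF3 (35.8 ± 4.65) and SRSF5 (25.6 ± 1.44 RPKM) were in the middle. SRSF11, SRSF4 and SRSF10 had the lowest levels, at 16.6 ± 1.29, 12.8 ± 0.507 and 12.3 ± 1.2 RPKM. The libraries of SRSF1 and SRSF2, of SRSF3 and SRSF7, and of SRSF4 and SRSF10 overlapped, so the order within those pairs is not beyond their spread. After Dox/IAA treatment of SDS22-degron cells SRSF5 reached 29.7 ± 2.87 RPKM and stood above SRSF7 (26.1 ± 1.25) and SRSF3 (25.9 ± 1.01 RPKM), with no overlap between its libraries and theirs.

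**Figure D1:**
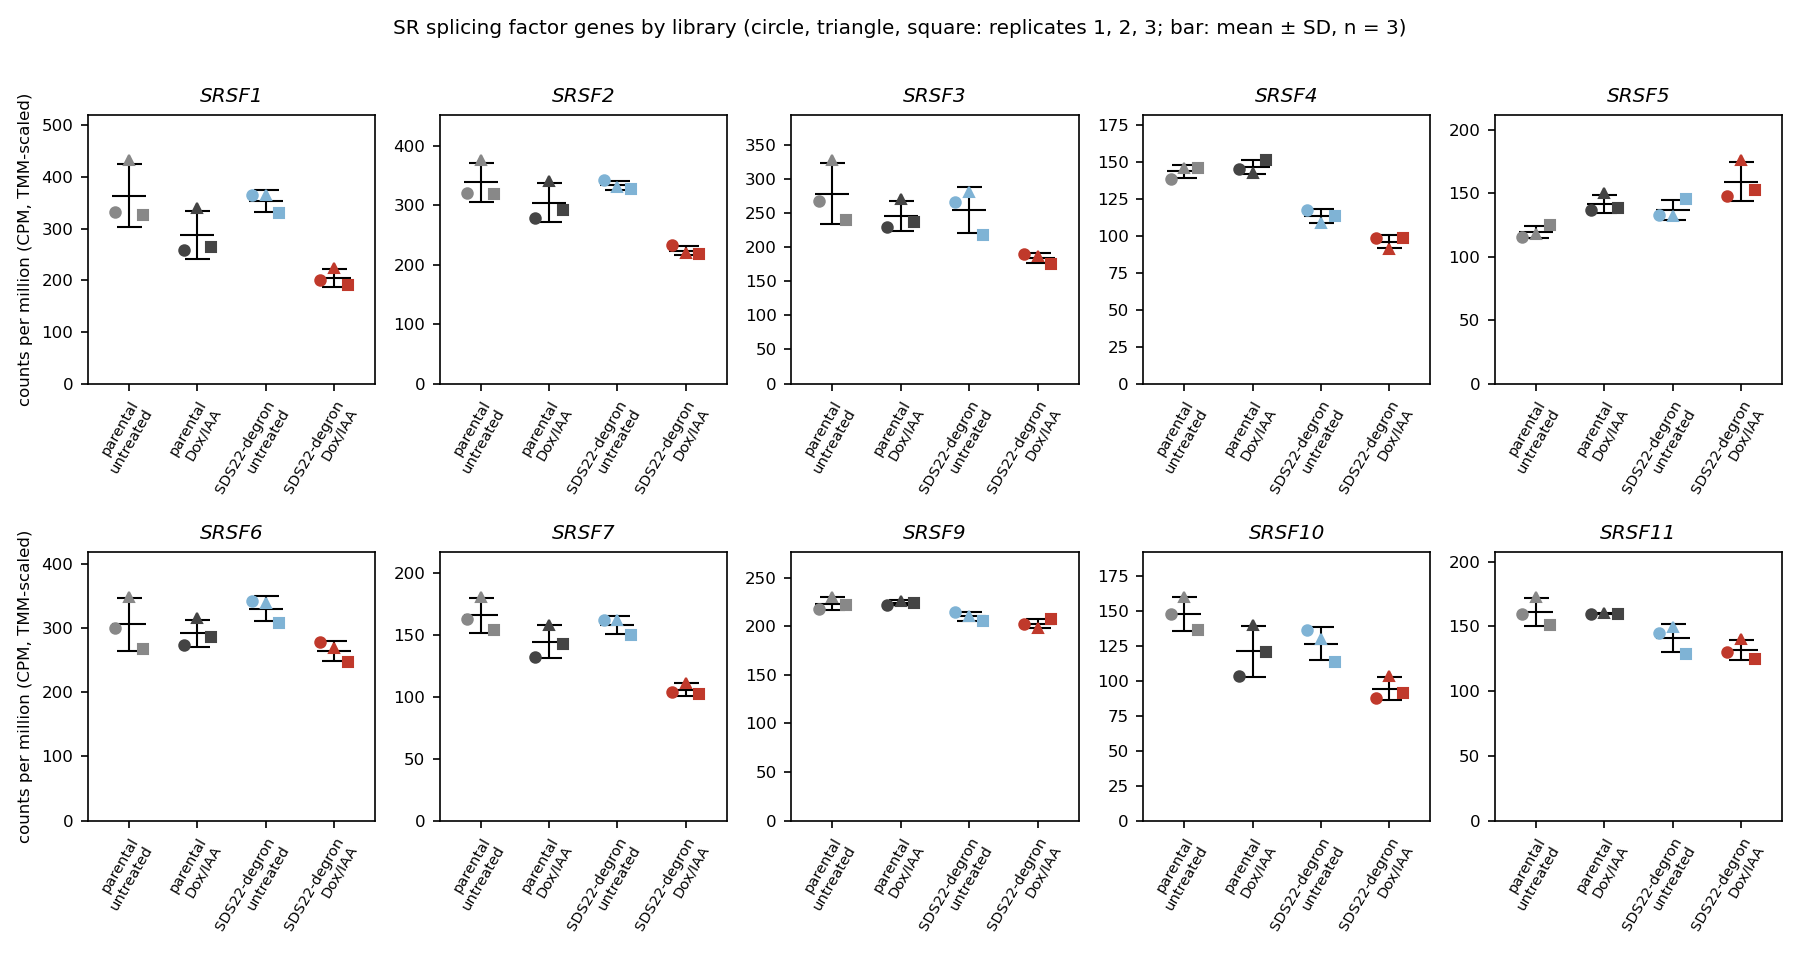
Level of each SR splicing factor gene in every library, in TMM-scaled CPM on an axis from 0, by line and treatment; symbols are replicates and bars are mean ± SD (n = 3). For SRSF1, SRSF2, SRSF3, SRSF4 and SRSF7 the 3 Dox/IAA-treated SDS22-degron libraries lie below those of every other group. For SRSF5 the untreated parental libraries are the lowest.

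The first question was how the family responded when Dox/IAA was given to cells whose SDS22 carries the degron. In SDS22-degron cells, 7 of the 10 genes fell, SRSF5 rose, and SRSF9 and SRSF11 did not pass the test. Over all tested genes 25.5% were called lower and 26% higher. The median log2 fold change was -0.37 over the 10 genes and 0.00 over all genes (edgeR quasi-likelihood test, Benjamini-Hochberg adjusted over all tested genes, here and throughout). The same 7 genes had all 3 treated libraries below all 3 untreated ones, as had 29.7% of tested genes. No SR gene halved: none passed an absolute log2 fold change of 1, the cut-off of the study. Together the 10 genes held 0.161 to 0.177% of the counts in treated SDS22-degron libraries and 0.194 to 0.243% in the other 9. A CPM is a share of a library's RNA, and fewer cells of a type and less RNA per cell cannot be told apart.

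SRSF1, SRSF3 and SRSF7 activate splicing of enhancer-bearing exons and also accompany messages to the cytoplasm, SRSF3 and SRSF7 as adaptors of the export receptor NXF1. SRSF1 read 365, 365 and 330 CPM in SDS22-degron cells without Dox/IAA and 200, 224 and 190 CPM with it, the deepest fall in the family. Its log2 fold change was -0.79 (SE 0.111, adjusted p = 1.04e-05), or 58.0% of the untreated level. SRSF7 read 162, 162 and 149 CPM untreated and 104, 111 and 102 CPM treated. It fell to 67.0% (log2 fold change -0.58, SE 0.0774, adjusted p = 6.05e-06), and its groups were far apart relative to their spread. SRSF3 ranged from 218 to 281 CPM untreated and from 176 to 190 CPM treated, a log2 fold change of -0.47 (SE 0.105, adjusted p = 0.00108).

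SRSF2 is a nuclear speckle protein that stays in the nucleus and also acts at promoter-paused RNA polymerase. It read 342, 332 and 327 CPM in untreated and 233, 220 and 219 CPM in treated SDS22-degron cells. The replicates were tight in both groups, and the level fell to 67.1% (log2 fold change -0.58, SE 0.0793, adjusted p = 8.08e-06). The MFSD11 gene overlaps SRSF2 by 1510 bases on the opposite strand and had 213 to 360 counts per library. Whether strand was used in counting was not given in the sources used here, so reads in that overlap may be uncertain.

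SRSF4, SRSF5 and SRSF6 carry a pair of RNA recognition motifs and longer serine-arginine domains. SRSF4 read 118, 109 and 114 CPM untreated and 98.8, 91.1 and 98.4 CPM treated. The groups did not overlap, and the fall was small, to 84.6% (log2 fold change -0.24, SE 0.0621, adjusted p = 0.00328). SRSF6 read 343, 340 and 309 CPM untreated and 278, 269 and 247 CPM treated, again without overlap. It fell to 80.1% (log2 fold change -0.32, SE 0.0861, adjusted p = 0.00441). SRSF5 went the other way, from 132 to 146 CPM untreated to 148 to 177 CPM treated (log2 fold change 0.22, SE 0.0733, adjusted p = 0.0197). That rise rested on its libraries: without Dox/IAA-treated replicate 2 the log2 fold change was 0.13 (adjusted p = 0.142), and without untreated replicates 1 or 2 it was 0.19 in either case (adjusted p = 0.0742 and 0.0840).

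SRSF9 and SRSF11 are less typical members, and SRSF10 acts as a splicing repressor when it is dephosphorylated. SRSF10 fell from 114 to 137 CPM to 88.1 to 104 CPM (log2 fold change -0.43, SE 0.10, adjusted p = 0.00162). SRSF9 was 205 to 215 CPM untreated and 198 to 207 CPM treated, and the groups overlapped. Its log2 difference was -0.05 with a 95% interval from -0.17 to 0.06 (adjusted p = 0.444). For SRSF11, 129 to 149 CPM stood against 125 to 140 CPM, a log2 difference of -0.10 with an interval from -0.24 to 0.05 (adjusted p = 0.276). GATC overlaps SRSF9 by 2082 bases on the opposite strand and had 727 to 1007 counts, and the processed pseudogene SRSF9P1 had 80 to 141 counts, so a part of the SRSF9 reads may be uncertain too. The pseudogenes SRSF1P1 and SRSF10P1 had at most 10 and 5 counts.

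**Figure D2:**
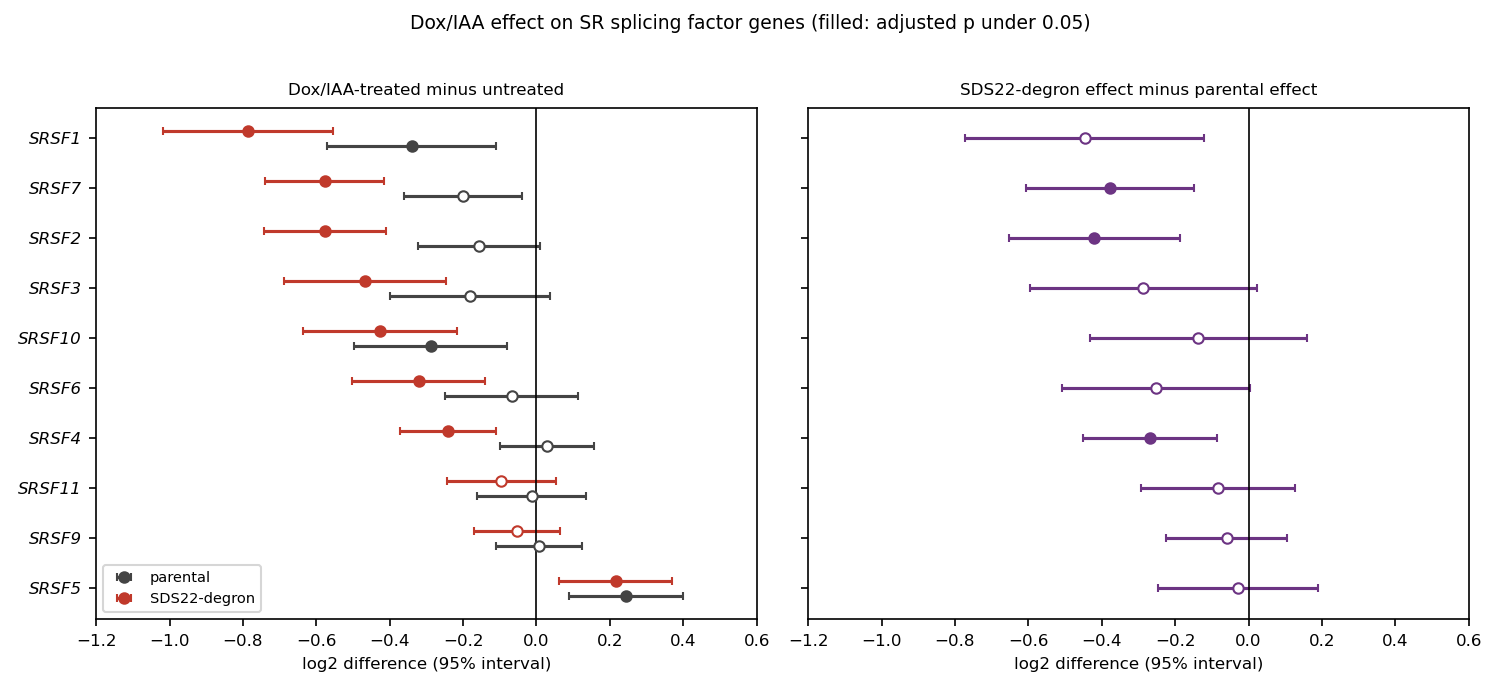
Left, log2 difference of Dox/IAA-treated from untreated libraries for each SR gene in parental (grey) and SDS22-degron cells (red), with 95% intervals; right, the SDS22-degron effect minus the parental effect. Filled points passed an adjusted p of 0.05: 7 genes lie left of 0 in SDS22-degron cells, and SRSF2, SRSF7 and SRSF4 differ between the lines.

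Parental cells received the same agents without a degron on SDS22, and here the SR genes moved less. SRSF1 and SRSF10 fell and SRSF5 rose, and the other 7 did not pass the test, with 15.7% of tested genes lower and 15.9% higher. The median log2 fold change over the 10 genes was -0.11. SRSF1 read 333, 433 and 326 CPM untreated and 258, 340 and 265 CPM treated. Replicate 2 was the high library in both groups, and the groups overlapped, with a log2 fold change of -0.34 (SE 0.110, adjusted p = 0.0243). SRSF10 had a log2 fold change of -0.29 (SE 0.0991, adjusted p = 0.0330), again with overlapping libraries. SRSF5 rose without overlap, from 116 to 125 CPM to 137 to 150 CPM (log2 fold change 0.25, SE 0.0740, adjusted p = 0.0170). Among the genes that did not pass, the log2 differences were -0.20 for SRSF7, -0.18 for SRSF3, -0.16 for SRSF2, -0.07 for SRSF6, -0.01 for SRSF11, 0.01 for SRSF9 and 0.03 for SRSF4.

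The parental calls depended on individual libraries. SRSF1 lost its call without untreated replicate 2 (log2 fold change -0.19, adjusted p = 0.180), without treated replicate 1 (-0.26, 0.122) and without treated replicate 3 (-0.28, 0.107). SRSF10 lost it without untreated replicate 1 (-0.30, 0.0646), untreated replicate 2 (-0.22, 0.140), treated replicate 1 (-0.18, 0.191) and treated replicate 3 (-0.28, 0.0848). SRSF5 lost it without untreated replicate 1 (0.21, 0.0763) or treated replicate 2 (0.20, 0.0564). SRSF2 and SRSF7 gained one without treated replicate 2 (-0.24, 0.0180, and -0.27, 0.0131), and SRSF7 also without untreated replicate 3 (-0.25, 0.0308). With both replicate 2 libraries left out, SRSF1 (-0.33, 0.00387) and SRSF10 (-0.34, 0.0139) were still lower and SRSF5 did not pass (0.19, 0.10). With the replicate number as a block, which pairs these parental libraries, SRSF7 was also called lower (log2 fold change -0.20, adjusted p = 0.0154), for 3 genes lower in all.

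Whether the response differed between the lines was tested by the interaction, the SDS22-degron effect minus the parental effect. SRSF2, SRSF7 and SRSF4 fell further in SDS22-degron cells and no SR gene rose further, where 8.35% of tested genes were called with a lower and 6.03% with a higher difference. All 10 differences were below 0, with a median of -0.26 against 0.00 over all genes. By edgeR, 0 of the 10 were higher at an unadjusted p of 0.05 as well, and DESeq2 also called 0 higher. For SRSF2, the parental libraries read 322, 377 and 319 CPM untreated and 279, 341 and 292 CPM treated. These overlapped, unlike the SDS22-degron libraries, and the difference was -0.42 (SE 0.112, adjusted p = 0.0168). For SRSF7, parental cells read 163, 181 and 154 CPM untreated and 132, 158 and 143 CPM treated, also overlapping. The difference was -0.38 (SE 0.109, adjusted p = 0.0260).

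SRSF4 differed in that parental cells showed no fall, with 139, 146 and 146 CPM untreated and 146, 143 and 152 CPM treated. Its difference was -0.27 (SE 0.0870, adjusted p = 0.0448), and the call was lost with an offset for GC content (-0.24, adjusted p = 0.0748) and without a filter (-0.27, 0.119). SRSF1 had the largest difference of the family, -0.45, but also a large SE of 0.156, and did not pass (adjusted p = 0.0622). It passed with the replicate block (-0.45, adjusted p = 0.00320), the likelihood ratio test of edgeR (0.0410), DESeq2 (0.0481) and no filter (0.000461). SRSF6 read 301, 349 and 268 CPM in untreated and 274, 316 and 286 CPM in treated parental cells, where all 3 treated libraries lay inside the untreated range. Its difference of -0.25 (SE 0.122) did not pass (adjusted p = 0.178). SRSF5 rose by similar amounts in both lines, with a difference of -0.03 and a 95% interval from -0.25 to 0.19. The remaining differences, which did not pass, were -0.29 for SRSF3, -0.14 for SRSF10, -0.08 for SRSF11 and -0.06 for SRSF9.

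Of these, SRSF2 kept its call on leaving out any of the 12 libraries (adjusted p 0.00229 to 0.0494). SRSF7 lost it in 6 of 12 cases, without untreated parental replicates 1 (-0.37, adjusted p = 0.0536) or 3 (-0.33, 0.0733), treated parental replicate 2 (-0.29, 0.0792), untreated SDS22-degron replicates 1 (-0.36, 0.0653) or 2 (-0.36, 0.0703), or treated SDS22-degron replicate 3 (-0.37, 0.0570). SRSF4 lost it in 8 of 12, all but untreated parental replicate 2, treated parental replicate 1 and treated SDS22-degron replicates 1 and 3, with differences from -0.30 to -0.23 and adjusted p up to 0.117. Without untreated parental replicate 2, SRSF1 (-0.61, adjusted p = 0.00499), SRSF3 (-0.44, 0.0240) and SRSF6 (-0.38, 0.0208) passed as well, for 6 genes in all. SRSF1 also passed without treated parental replicate 1 (-0.54, 0.0315). With both parental replicate 2 libraries left out, SRSF1 (-0.44, 0.00575), SRSF2 (-0.40, 0.00325), SRSF4 (-0.29, 0.0474) and SRSF7 (-0.36, 0.0164) passed.

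**Figure D3:**
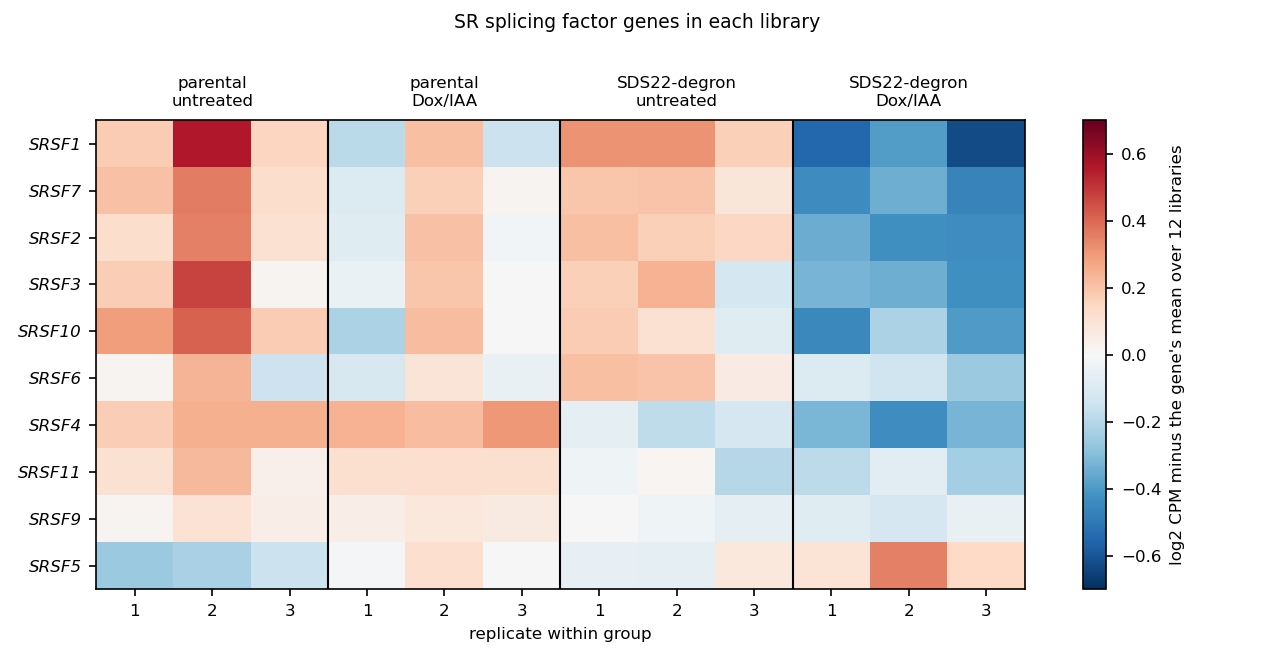
Log2 CPM of each SR gene in each library, centred on the gene's mean over the 12 libraries; columns are replicates within the 4 groups, and red is above and blue below the mean. SRSF1 runs from 0.56 in untreated parental replicate 2 to -0.62 in treated SDS22-degron replicate 3, and SRSF5 has the opposite pattern to the genes above it.

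Treated SDS22-degron cells were also compared directly with treated parental cells, which received the same agents. Here 8 of the 10 genes were lower and SRSF5 and SRSF6 did not pass, where 23.1% of tested genes were lower and 21.8% higher. The median log2 difference was -0.39, and 7 genes had no overlap between the lines, as had 27.2% of tested genes. SRSF4 had the largest difference, 91.1 to 98.8 against 143 to 152 CPM (log2 difference -0.61, SE 0.0619, adjusted p = 3.57e-07). SRSF1 was at 71.2%, SRSF7 at 73.3%, SRSF2 at 73.5% and SRSF3 at 74.9% of the treated parental level. SRSF10 was at 77.8% and SRSF11 at 82.5% (adjusted p = 0.00655 and 0.00381). SRSF9 was closest to the threshold among the called genes, at 90.3% (log2 difference -0.15, SE 0.0558, adjusted p = 0.0388).

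The SRSF9 call was lost in 5 of the 6 cases in which a library was left out, with adjusted p up to 0.124. Treated SDS22-degron replicate 3 was the exception. Over all 17 alternatives the SRSF9 call was lost in 10. These included library size alone (adjusted p = 0.0501), upper quartile scaling (0.0927), no filter (0.111) and only the groups compared (0.0994). Leaving out both parental replicate 2 libraries lost it too (0.096). SRSF10 lost its call without parental replicate 2 (log2 difference -0.23, adjusted p = 0.0614). SRSF6 had a difference of -0.14 with an interval from -0.32 to 0.04. By edgeR 0 genes were higher, as by DESeq2, although SRSF5 had an unadjusted p of 0.0351 (log2 difference 0.17, adjusted p = 0.0724). SRSF5 passed without parental replicate 2 (0.23, 0.0283) or without SDS22-degron replicate 1 (0.22, 0.0372). It passed too with the replicate block, which pairs the treated lines (0.17, adjusted p = 0.0462). With both parental replicate 2 libraries left out, 7 genes were lower and SRSF5 was higher (0.23, 0.0254).

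**Figure D4:**
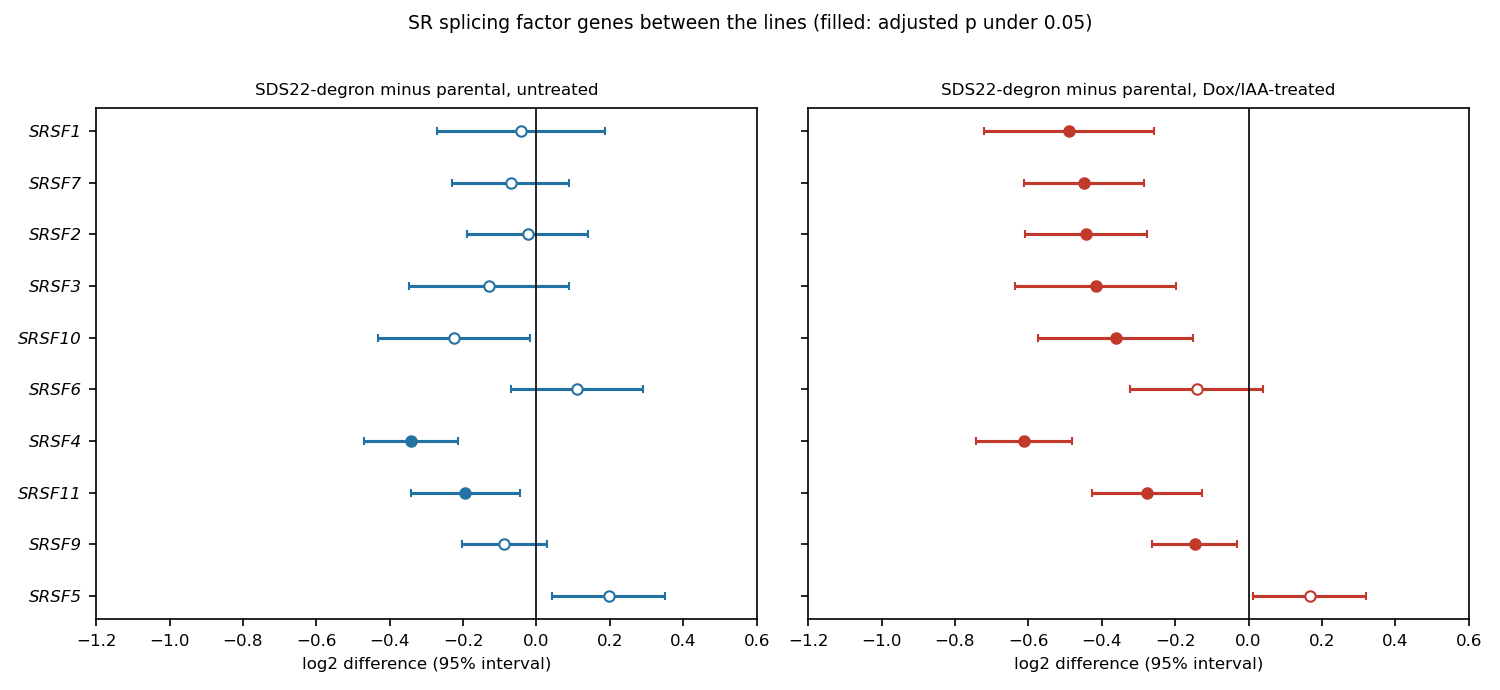
Log2 difference of SDS22-degron from parental cells for each SR gene, with 95% intervals, in untreated (left) and Dox/IAA-treated cells (right); filled points passed an adjusted p of 0.05. SRSF4 is lower in both states, at -0.34 and -0.61, whereas SRSF1, SRSF2, SRSF3 and SRSF7 are near 0 without Dox/IAA and lower with it.

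Before any Dox/IAA, 2 of the 10 genes differed between the lines. SRSF4 and SRSF11 were lower in untreated SDS22-degron than in untreated parental cells, and 0 SR genes were higher, where 15% of tested genes were lower and 13.2% higher. SRSF4 was 109 to 118 against 139 to 146 CPM (log2 difference -0.34, SE 0.0614, adjusted p = 0.000391), without overlap. SRSF11 was 129 to 149 against 151 to 173 CPM (log2 difference -0.19, SE 0.0709, adjusted p = 0.0482). That call was lost without parental replicate 1 (-0.19, 0.0952) or 2 (-0.12, 0.261) and without SDS22-degron replicate 1 (-0.21, 0.0770) or 3 (-0.13, 0.225). SRSF10 did not pass, with a log2 difference of -0.23 (SE 0.0987, adjusted p = 0.0971), larger than that of SRSF11, and was called lower under 4 of 17 alternatives. SRSF4, SRSF10 and SRSF11 lie on chromosome 1, where the median over 1659 tested genes was -0.13 in this comparison, against 0.03 to 0.08 on the other chromosomes that hold SR genes. The part of the chromosome in these differences was not tested.

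SRSF5 did not pass between the untreated lines (log2 difference 0.20, unadjusted p = 0.0160, adjusted p = 0.0549), by edgeR or by DESeq2, although its libraries did not overlap. SRSF6 was called higher only without parental replicate 2 (0.24, adjusted p = 0.0385) or with both replicate 2 libraries of the parental line left out (0.22, 0.0268). SRSF1, SRSF2, SRSF3 and SRSF7 differed by -0.04, -0.02, -0.13 and -0.07, with overlapping libraries, and did not pass. Nor did SRSF9 at -0.09 or SRSF6 at 0.11. The 95% intervals of the first 4 ran from -0.35 at the lowest, for SRSF3, to 0.19 at the highest, for SRSF1.

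Across the 12 libraries the SR genes followed each other to different degrees, and SRSF5 ran opposite to the rest. The Pearson correlation of a gene's log2 CPM with the mean of the other 9 was 0.98 for SRSF7, 0.96 for SRSF3, 0.95 for SRSF2, 0.94 for SRSF1 and 0.93 for SRSF10. It was 0.66 for SRSF4, 0.76 for SRSF6, SRSF9 and SRSF11, and -0.75 for SRSF5. These describe 12 libraries in 4 groups, which share the group differences above, and no test was made. The genes outside the family whose pattern was most like the mean of the SR genes were API5, ZWILCH, BCLAF1, CNOT7 and PTGES3, with correlations of 0.99 to 0.98. API5, an inhibitor of apoptosis, fell to 76.1% and ZWILCH, a kinetochore protein, to 49.7% of the untreated level with Dox/IAA in SDS22-degron cells. BCLAF1, CNOT7 and PTGES3 were at 75.8%, 76.7% and 61.1%.

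The SR genes have a GC content of 37.2 to 46.8% over their gene models, with a median of 41.5% against 48.1% over all tested genes. With an offset for GC content in the fit, 7 SR genes were still lower and 1 higher with Dox/IAA in SDS22-degron cells, whereas the interaction was called for 2 genes in place of 3, without SRSF4.

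Other genes of the splicing pathway were read from lists written with general knowledge. Of 9 SR protein kinase genes, 8 were tested. With Dox/IAA in SDS22-degron cells 3 of the 8 rose and 1 fell (median log2 fold change 0.16), near the shares over all tested genes of 26% higher and 25.5% lower. SRPK1, the main cytoplasmic SR kinase, fell (-0.45, SE 0.0645, adjusted p = 1.17e-05), whereas CLK1, its nuclear counterpart, and SRPK2 rose (0.34 and 0.25, adjusted p = 0.00358 and 0.00664). In parental cells 1 of the 8 fell and 0 rose at the adjusted threshold by edgeR, where CLK1 and SRPK2 had 0.19 and 0.17 (unadjusted p = 0.0510 and 0.0298), and 2 rose at an unadjusted p of 0.05. In the interaction 0 of the 8 were called in either direction. This and the other counts of 0 given for the lists were also 0 by DESeq2 and, apart from the parental kinases, at an unadjusted p of 0.05 in edgeR.

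Of 18 SR-related and TRA2 splicing regulators, 9 fell and 0 rose in SDS22-degron cells (median -0.15), where 25.5% of tested genes were lower. In parental cells 3 fell, near the 15.7% over all genes. With Dox/IAA in SDS22-degron cells TRA2B, an enhancer-binding relative of the SR proteins, fell by 0.63 on the log2 scale (adjusted p = 3.89e-05). RNPS1, a component of the exon junction complex periphery, fell by 0.50 (8.45e-07) and U2AF2, which binds the polypyrimidine tract, by 0.49 (1.76e-06). TRA2B and RNPS1 fell in parental cells too (-0.36, adjusted p = 0.00948, and -0.29, 0.000868). Both were already lower between the untreated lines (-0.33, 0.0161, and -0.37, 8.15e-05). Their interactions did not pass (adjusted p = 0.212 and 0.0759). The interaction was called lower for 2 of the 18, near the 8.35% over all genes, U2AF2 among them (-0.35, adjusted p = 0.00911). That count ranged from 1 to 5 over 22 alternatives.

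The hnRNP proteins, which often act against SR proteins at the same exons, fell too. Of 25 genes, 20 fell and 1 rose in SDS22-degron cells (median -0.41; 25.5% lower over all genes), and 12 fell and 2 rose in parental cells (median -0.19; 15.7% lower over all genes). The interaction was lower for 7 of the 25, where 8.35% of all tested genes were lower. That count ranged from 3 to 13 over the alternatives. HNRNPAB (-0.72, adjusted p = 1.58e-07), SYNCRIP (-0.78, 2.27e-07) and HNRNPF (-0.65, 2.42e-07) had the smallest p in SDS22-degron cells, and all 3 fell further there than in parental cells, by 0.54, 0.37 and 0.41 on the log2 scale. Of 30 core spliceosome genes, 23 fell and 0 rose in SDS22-degron cells (median -0.41) and 13 fell in parental cells (median -0.20), against the same shares over all genes. The Sm protein genes SNRPD1 (-0.87, adjusted p = 1.2e-08) and SNRPB (-0.82, 1.93e-08) and the U1 protein gene SNRPA (-0.74, 9.7e-08) had the smallest p there. They were not all the deepest falls. SNRPA fell in parental cells also (-0.60, adjusted p = 5.33e-06), and its interaction did not pass (-0.14, adjusted p = 0.383). Of the 30 core spliceosome genes, 6 were called lower in the interaction, against 8.35% of all tested genes. The median of the SR genes in SDS22-degron cells, -0.37, thus lay beside those of the hnRNP and core spliceosome lists.

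**Figure D5:**
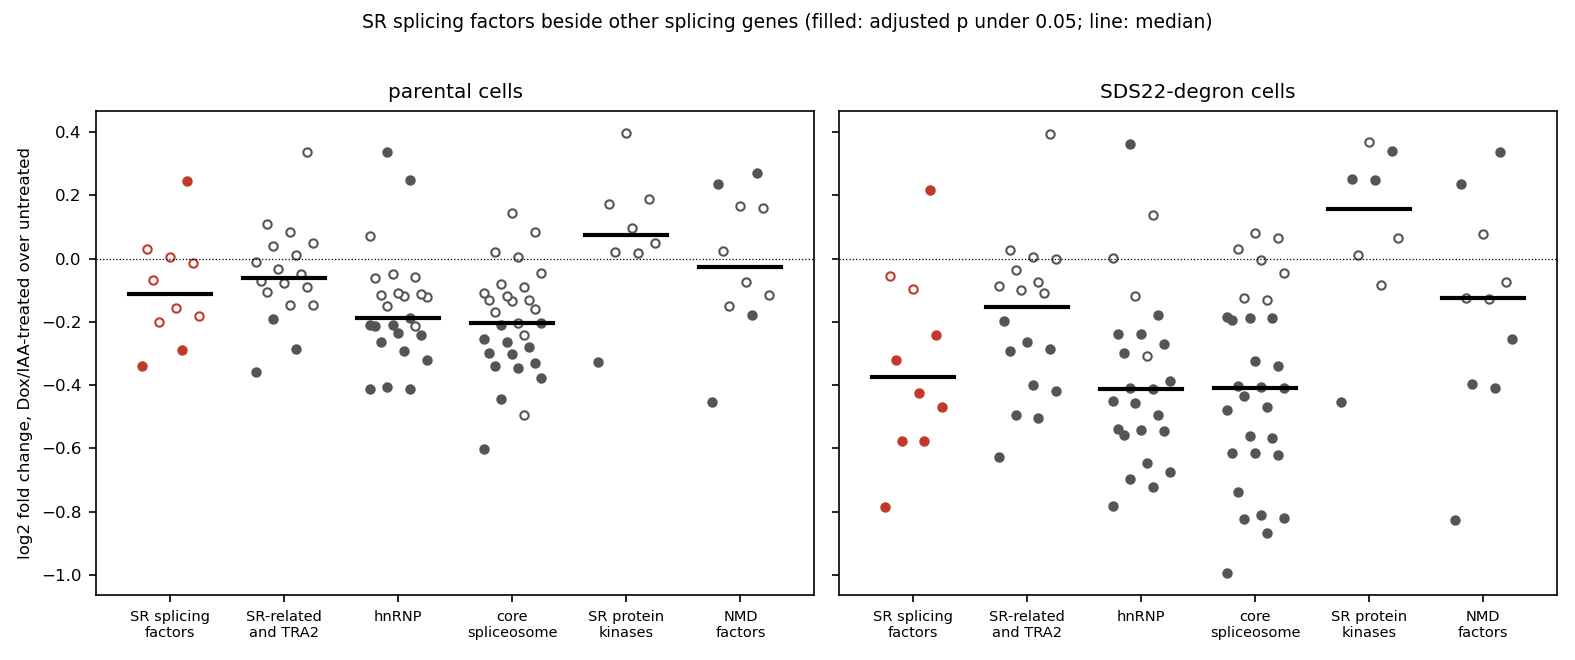
Log2 fold change with Dox/IAA in parental (left) and SDS22-degron cells (right) for the SR splicing factors (red) and 5 lists of other splicing and decay genes (grey); each point is a gene, filled at an adjusted p under 0.05, and lines are medians. The SR, hnRNP and core spliceosome medians are -0.37, -0.41 and -0.41 in SDS22-degron cells, and the SR protein kinases have a median of 0.16.

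NMD factors, which clear SR messages that include poison exons, had 4 of 10 genes lower and 2 higher in SDS22-degron cells (median -0.13), near the 25.5% lower and 26% higher over all tested genes. SMG9 (-0.83, adjusted p = 2.31e-06) and SMG5 (-0.41, 5.23e-05) fell and SMG6, the endonuclease of the pathway, rose (0.34, 0.000306). In parental cells SMG9 was lower too (-0.45, adjusted p = 0.002) and SMG6 higher (0.24, 0.0118), and their interactions did not pass (adjusted p = 0.0854 and 0.522). SMG5 did not pass in parental cells (0.17, adjusted p = 0.063) and was called in the interaction (-0.58, adjusted p = 0.00049). Among 7 genes for PP1 and PP2A catalytic subunits and nuclear PP1 partners, 2 fell and 0 rose, the former near the 25.5% over all genes. These were PPP1CC, a PP1 catalytic subunit (-0.42, adjusted p = 0.000239), and PPP1R10, which encodes the nuclear partner PNUTS (-0.43, 0.000253). The interaction passed for PPP1R10 (-0.52, adjusted p = 0.00460) and not for PPP1CC (-0.25, adjusted p = 0.140). The paper reports that transcripts of the PP1 isoforms were unaffected in treated SDS22-degron against parental cells. Between the treated lines PPP1CC was at -0.21 here (adjusted p = 0.0410), short of the study's cut-off. PPP1R8, encoding NIPP1, was at -0.14 with Dox/IAA in SDS22-degron cells and did not pass (adjusted p = 0.131). It was lower between the treated lines (-0.29, adjusted p = 0.00365) and already between the untreated lines (-0.33, 0.0021).

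SRSF8, a relative of SRSF2 outside the chosen family, behaved unlike it. It averaged 75.3 ± 2.43 and 61.9 ± 6.28 CPM in untreated and treated parental cells and 77.0 ± 1.71 and 85.1 ± 8.32 CPM in untreated and treated SDS22-degron cells (SD, n = 3). It fell in parental cells (-0.28, adjusted p = 0.0133) and did not pass in SDS22-degron cells (0.14, adjusted p = 0.143), and the interaction was higher (0.43, SE 0.115, adjusted p = 0.0178). SRSF12 had 0 counts in all 12 libraries.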

How the data were processed

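RNA was measured in 12 libraries of HCT116 Tet-OsTIR1 and SDS22-degron cells, grouped by their labels. The table the authors deposited holds read counts for each gene, not normalized, from poly-A selected, stranded, single-read libraries, with a GC percent per gene deposited beside them. The submitters' processing notes name cutadapt 1.15, Bowtie2 2.3.3.1, STAR 2.5.2b, SAMtools 1.5, featureCounts 1.5.3 and the build GRCh38, without their role or settings. The number of unmapped sample columns was 0.

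Counts were fitted in R 4.3.3 with edgeR 4.0.16: filterByExpr by group (minimum count 10, 16657 genes kept), TMM scaling (factors 0.971 to 1.03), 4 group means and the quasi-likelihood F test. Benjamini-Hochberg adjustment covered all 16657 genes and the threshold was 0.05. Standard errors and 95% intervals came from the log2 fold change and F. CPM values are TMM-scaled, and RPKM values use the deposited gene length. For correlations, log2 CPM took a prior count of 2. The common biological coefficient of variation was 7.48%, and the median SE was 0.11 between groups and 0.156 in the interaction. The fit was tested on simulated data. DESeq2 1.42.0 and the likelihood ratio test of edgeR, which the study used, were among 24 alternatives.

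The genes and lists were chosen with earlier results of these data known. All 10 SR genes are reported in every comparison, with every library for the 5 with the smallest interaction p, and for each list the 3 genes with the smallest p for Dox/IAA in SDS22-degron cells. Genes whose pattern was most like the family were the 5 highest Pearson correlations with the members' mean centred log2 CPM. SRSF5 and the genes with overlapping or pseudogene reads are given by range. Deviations of same-numbered libraries from their group means correlated above 0.1 in every pair for untreated against treated parental cells (0.124, 0.246 and 0.131) and for the treated lines (0.101, 0.133 and 0.138), so the numbers were taken to pair those libraries, from the data and not the labels. In the other comparisons not every pair was above 0.1, so pairing was not assumed there, and this does not exclude it.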

Additional observations from a re-analysis of the deposited data

Results flagged for a closer look

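The Dox/IAA effect differed between the lines, by the test of the difference itself, for 3 SR genes. The effect in SDS22-degron minus that in parental cells was -0.4198 for SRSF2, -0.3777 for SRSF7 and -0.2697 for SRSF4 on the log2 scale (edgeR quasi-likelihood test, adjusted p = 0.0168, 0.0260 and 0.0448). SRSF2 passed in all 12 fits that left out a library, SRSF7 in 6 fewer and SRSF4 in 8 fewer. No group had more than 3 libraries, so none was tested for a library far from the others.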

How the results depend on the processing

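Of the recomputed results for single SR genes, 791 kept direction and side of the threshold, 54 lost and 33 gained a call and 22 turned sign. With Dox/IAA in SDS22-degron cells 7 genes were lower under every alternative other than the study's cut-off, and 7 on leaving out each library; the higher count ranged from 0 to 1. On leaving out libraries, parental counts ranged from 0 to 4 lower and 0 to 1 higher, treated lines 6 to 8 lower and 0 to 1 higher, untreated lines 1 to 2 lower and 0 to 1 higher, and the interaction 1 to 6 lower. With the study's cut-off (absolute log2 fold change above 1) all counts were 0. In parental cells 0 were lower with library size alone or with only the groups compared, 1 with upper quartile scaling and 4 with GC offset and replicate block. Between treated lines 1 was higher with upper quartile scaling, the replicate block, and GC offset with the block. Between untreated lines 1 was lower with DESeq2, library size alone or upper quartile, and 1 higher with library size, upper quartile, only the groups compared, the replicate block, and GC offset with the block. With both parental replicate 2 libraries left out, chosen after seeing the data, parental higher was 0, treated lines higher 1, and untreated lines 1 higher and 1 lower. Pairing was neither assumed nor excluded for the untreated lines, where the replicate block called SRSF5 higher and, with SRSF10, 3 lower. The same holds for the SDS22-degron groups, where the block called 1 higher and 7 lower. In the interaction the block added SRSF1 (-0.45, adjusted p = 0.00320), for 4 lower, and it changed no other member call than those named here and in the report. Lists moved by over 1.5 times in SDS22-degron cells for hnRNP genes higher (1 to 2) and NMD factors higher (2 to 1). In the interaction, hnRNP genes lower ranged from 3 to 13, and SR-related and TRA2 regulators lower from 1 to 5. The causes were not tested.

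Small differences that were not called turned sign. Between untreated lines SRSF2 was 0.0028 with library size alone, 0.0117 with upper quartile and 0.0613 without both parental replicate 2 libraries, SRSF1 0.1048 and SRSF3 0.0078 under the last, and ranges over left-out libraries were -0.1179 to 0.122 (SRSF1), -0.0681 to 0.0785 (SRSF2), -0.2282 to 0.0251 (SRSF3) and -0.1238 to 0.0166 (SRSF7). In parental cells SRSF11 was 0.0465, 0.0116 and 0.0416 under those settings, with ranges of -0.0578 to 0.0452 (SRSF11), -0.0038 to 0.0501 (SRSF4), -0.1565 to 0.0418 (SRSF6) and -0.0191 to 0.0329 (SRSF9). The SRSF5 interaction was 0.0375 without both libraries and -0.1114 to 0.0279 over left-out libraries. The median SE of 0.156 limits the differences that the interaction can resolve.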
